A study of Canis lupus familiaris with 15 samples.

Results

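CLU and CRYAB, a secreted and an intracellular molecular chaperone, are 2 of the 5246 named genes measured on cDNA arrays in 3 cell lines from mammary tumours of dogs. They were taken as all probes with the symbol CLU or CRYAB, which gave 1 probe for CLU (16043) and 4 for CRYAB (2032, 6081, 11624 and 21203). These were 5 of 22176 probes, of which 7694 carried a symbol. P114 came from an anaplastic carcinoma, CMT-U229 from a benign mixed tumour and CMT-U335 from an osteosarcoma, all of the mammary gland. RNA was taken from cells near confluence, and each of the 15 arrays carried RNA of a pair of lines in Cy5 and Cy3, with 5 arrays per pair and both dye orders in every pair. Each tumour type is represented by a single line, so a difference between lines cannot be told apart from a difference between tumours of those types. Arrays of a pair are labelled as biological replicates, 5 each, but per the design text some are dye swaps, and only 1 or more need be a biological replicate. Spreads and p-values below therefore measure only the spread between arrays, which may be technical.

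Clusterin, the product of CLU, is a glycoprotein that cells secrete. It binds unfolded proteins outside the cell, travels with lipoproteins, is taken up through receptors of the LDL receptor family and blocks the membrane attack complex of complement. Alpha-B-crystallin, the product of CRYAB, is a small heat shock protein. It forms large oligomers in the cytosol, holds damaged proteins so that they do not aggregate, and steadies intermediate filaments and actin. It is abundant in the lens and in muscle, and in the mammary gland it is found in myoepithelial cells and in basal-like carcinomas.

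The values are log ratios of the dyes, taken as log2 since the base is not stated in the sources used here, so they give the level of a gene in a line relative to another line and not its abundance. The direction is likely but not settled, because the deposited values were read as Cy5 over Cy3 from the order of the channels in the labels. With the opposite reading every sign below turns. Array medians as deposited ranged from -0.00671 to 0.0133, and 2 arrays of a pair correlated over all probes at -0.349 to 0.000184 where the dyes were swapped and at 0.197 to 0.497 where they were not. In P114 over CMT-U229, replicates 1 and 3 varied together and so did replicates 2 and 5. This was seen over 78 genes picked for a wide spread in that pair and a small dye effect in the other pairs. The same was seen for replicates 2 and 3, and for 4 and 5, of CMT-U229 over CMT-U335, over 52 genes picked likewise. Such couples were sought only among arrays of opposite dyes. Whether the arrays of a couple share RNA was not tested, and values with couples averaged are given beside the main results. Spot intensities were not used here, so the distance of a probe from background is unknown, and a ratio cannot show that a gene is silent in a line.

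CLU was highest in the benign-tumour line CMT-U229, lower in the carcinoma line P114 and lowest in the osteosarcoma line CMT-U335. CRYAB had another order: it was lowest in P114, and CMT-U229 and CMT-U335 were close to each other. P114 thus stood below CMT-U229 for both genes, whereas against CMT-U335 it stood above for CLU and below for CRYAB. The genes were chosen with these ratios known, so all their values are a description, and their calls are not read as a test. In RNA of whole cultures, fewer expressing cells and less RNA per cell cannot be told apart.

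The widest CLU ratio was between CMT-U229 and CMT-U335. The log2 ratios of CMT-U229 over CMT-U335 were 2.81, 2.88, 2.96, 2.53 and 3.42 on replicates 1 to 5. Their mean of 2.92 ± 0.32 (SD, n = 5) is a 7.56-fold higher level in CMT-U229, with single arrays between 5.78-fold and 10.7-fold. All 5 arrays were on the same side, and replicate 5 was the highest. By the absolute size of its mean ratio CLU ranked 10 among 5246 genes in this pair. The spread was small beside the ratio: with couples averaged the 3 values were 2.92, 2.97 and 2.81.

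P114 over CMT-U229 gave CLU ratios of -1.76, -1.31, -2.10, -2.58 and -2.08, a mean of -1.97 ± 0.47 (SD, n = 5) or a 3.91-fold lower level in P114. No array crossed 0, and replicate 2 was the weakest and replicate 4 the strongest. The ratio differed between the dye orders, which are also different replicates, and the cause was not tested. With P114 in Cy5 the mean was -1.54 over 2 arrays, and with P114 in Cy3 it was -2.26 over 3 arrays. The dye effect this gives, 0.36 on the log2 scale, was above the 90th percentile of all genes in this pair (0.25). The sign was the same on each array. In P114 over CMT-U335 the ratios were 0.91, 1.54, 1.59, 1.22 and 0.84, a mean of 1.22 ± 0.35 (SD, n = 5) or a 2.33-fold higher level in P114. This was the smallest of the CLU ratios, and here too the 5 arrays had a common sign.

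**Figure D1:**
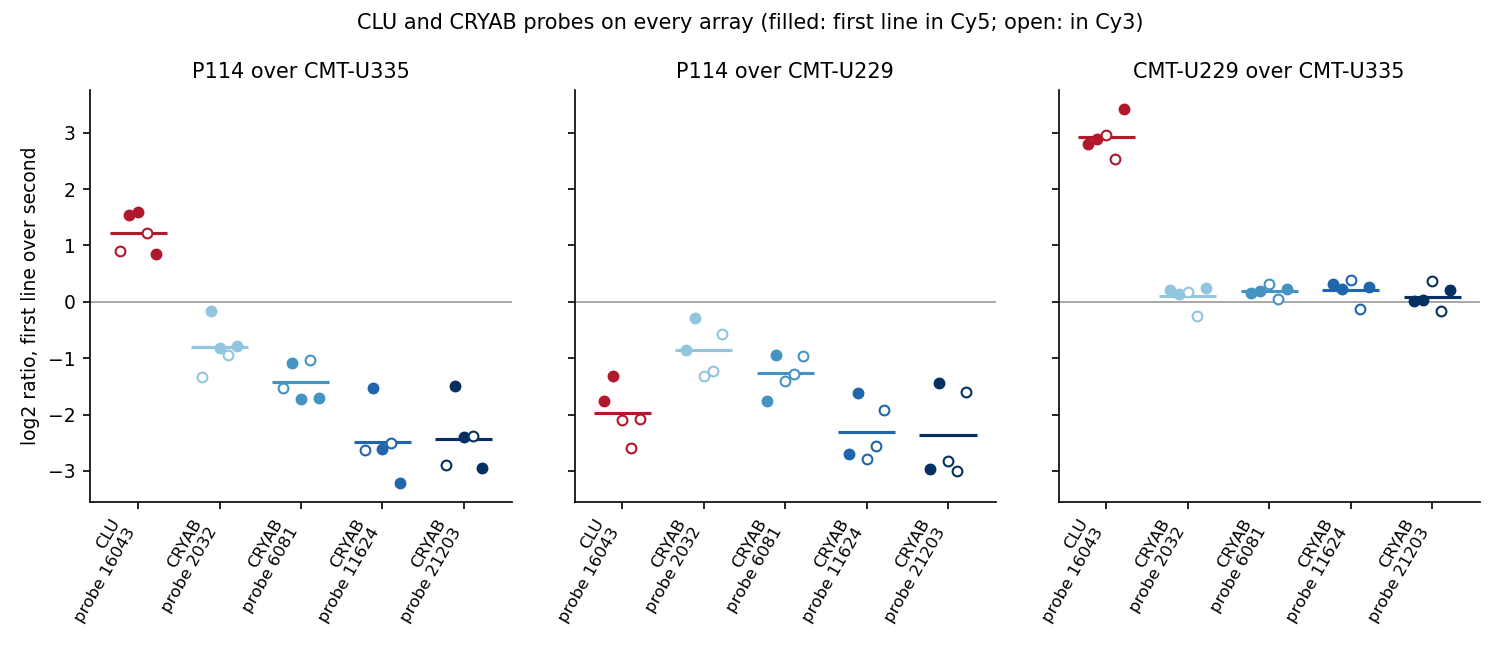
Log2 ratio of the first line over the second (y axis) for the CLU probe and the 4 CRYAB probes (x axis) on each of the 5 arrays of a pair. Points are arrays in the order of their replicate number, filled where the first line carried Cy5 and open where it carried Cy3, and bars are means. The CLU probe lies above 0 against CMT-U335 and below 0 in P114 over CMT-U229, while the CRYAB probes are all below 0 on both P114 panels and near 0 in the third.

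CRYAB was lower in P114 than in either other line on every array and every probe. Averaged over the 4 probes, P114 over CMT-U335 gave -2.10, -1.07, -1.89, -1.71 and -2.16, a mean of -1.79 ± 0.44 (SD, n = 5). P114 over CMT-U229 gave -2.07, -1.07, -2.08, -2.01 and -1.26, a mean of -1.70 ± 0.49 (SD, n = 5). These are 3.45-fold and 3.25-fold lower levels in P114. CRYAB ranked 50 and 36 by absolute mean ratio among 5246 genes in these pairs. The weakest arrays were replicate 2 of P114 over CMT-U335 and replicates 2 and 5 of P114 over CMT-U229. The latter were the couple that varied together, so that with couples averaged the values were -2.07 for replicates 1 and 3, -1.17 for 2 and 5, and -2.01 for replicate 4. In P114 over CMT-U335 the mean was -1.96 without replicate 2. Over all probes, the median absolute deviation of the ratios was 0.26 on the weaker array of P114 over CMT-U335 and 0.27 and 0.36 on the weaker arrays of P114 over CMT-U229, within the range of 0.21 to 0.37 over the 15 arrays. Its part in the weaker CRYAB ratios was not tested.

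Between CMT-U229 and CMT-U335 CRYAB ratios were 0.18, 0.15, 0.32, -0.12 and 0.24, a mean of 0.15 ± 0.17 (SD, n = 5) or a 1.11-fold difference. The ratio was smaller than its spread between arrays, and replicate 4 was on the other side of 0. CRYAB ranked 2274 of 5246 genes by size here. The order of these 2 lines for CRYAB was therefore not resolved, while for CLU they were the lines farthest apart.

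All 4 CRYAB probes had their lowest level in P114, but the sizes differed. Probe 2032 gave the smallest ratios of P114 over CMT-U335, at -1.33, -0.17, -0.81, -0.94 and -0.78, with a mean of -0.81 ± 0.42 (SD, n = 5). Probe 6081 was intermediate at -1.41 ± 0.33, from -1.73 to -1.03. Probes 11624 and 21203 were the largest, with -2.63, -1.53, -2.61, -2.50 and -3.21 on the former (mean -2.49 ± 0.61) and -2.90, -1.49, -2.40, -2.38 and -2.94 on the latter (mean -2.42 ± 0.58). On the fold scale that is a range from 1.75-fold to 5.63-fold lower in P114 for the same gene in the same RNA. Replicate 2 gave the weakest ratio on 3 of the probes and the second weakest on probe 6081.

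Probe 2032 was again the smallest in P114 over CMT-U229 and probe 6081 the next, with the other 2 close together: -0.85 ± 0.43 for probe 2032, -1.27 ± 0.34 for probe 6081, -2.32 ± 0.51 for probe 11624 and -2.36 ± 0.78 for probe 21203 (SD, n = 5). On single arrays probe 21203 reached -3.01 in replicate 4 and stood at -1.43 in replicate 2. Within an array, the ratio of probe 11624 minus that of probe 2032 was -1.47 ± 0.21, with single arrays between -1.83 and -1.33. Probe 21203 minus probe 11624 was -0.05 ± 0.32. In CMT-U229 over CMT-U335 all 4 probes lay near 0, at 0.11 ± 0.21, 0.19 ± 0.10, 0.22 ± 0.20 and 0.09 ± 0.20 in the order given. Probe 6081 was above 0 on all 5 arrays there, from 0.05 to 0.32, and the other probes were below 0 on replicate 4.

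Across the 15 arrays the uncentred correlation between CRYAB probes ran from 0.92 for probes 2032 and 6081 to 0.99 for probes 11624 and 21203. Uncentred means that the ratios are compared around 0, so the value does not depend on the order in which an array is read. The probes are spots of the same arrays and are not independent measurements. The gap between the largest and smallest probe mean of CRYAB was 1.69 log2 units in P114 over CMT-U335. For the 43 genes with 2 or more probes and a mean ratio of at least 2-fold in that pair, the median gap was 0.49, and 7 had a wider gap than CRYAB. In P114 over CMT-U229 the gap was 1.52, and 5 of 24 such genes had a wider one. The fold given for CRYAB as a gene is thus an average over probes that differ, while the sign is common to all of them. CLU had a single probe, so its size has no such check.

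**Figure D2:**
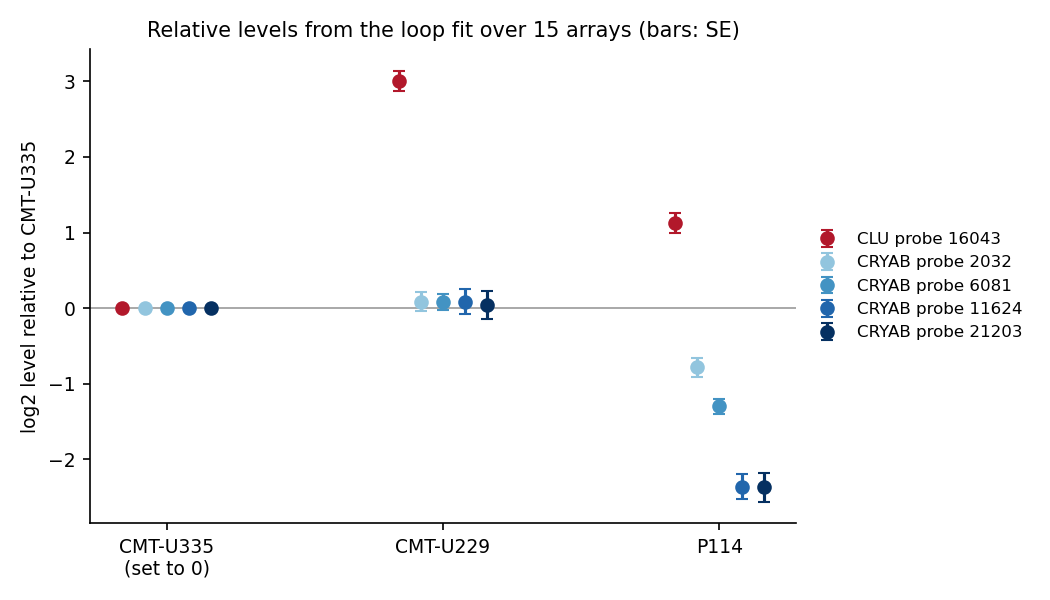
Log2 level of each probe in CMT-U229 and P114 relative to CMT-U335, which is set to 0 (y axis), from a fit over all 15 arrays that ties the 3 pairs together; bars are standard errors. The CLU probe is at 3.01 in CMT-U229 and 1.13 in P114, and the CRYAB probes are near 0 in CMT-U229 and between -2.37 and -0.79 in P114.

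A loop of 3 pairs allows each ratio to be read also through the third line. A fit over all 15 arrays placed CLU at 3.01 ± 0.13 (SE) in CMT-U229 and 1.13 ± 0.13 in P114, relative to CMT-U335. CRYAB was at 0.07 ± 0.13 in CMT-U229 and -1.71 ± 0.13 in P114. For CLU the ratio of CMT-U229 over CMT-U335 was 2.92 directly and 3.19 through P114. The direct and indirect routes differed by 0.27 ± 0.28 (SE). Among genes measured on all arrays, 92% had a gap no larger than this, and the median absolute gap was 0.08. For CRYAB the direct ratio was 0.15 and the indirect one -0.09, so its sign differed by route, at a size within the error. The routes differed by -0.24 ± 0.28, and 89.4% of genes had an absolute gap no larger. The gap of both genes was thus larger than that of most genes, though within the error, and gaps were ranked without scaling by their errors. For CRYAB the rank depended on the probe. The share of probes with a gap no larger was 39.4% for probe 2032, 73.2% for 21203, 93.8% for 6081 and 95.1% for 11624.

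On the same arrays CLU and CRYAB were set against each other. In P114 over CMT-U335 the ratio of CLU exceeded that of CRYAB by 2.61 to 3.48 log2 units on every array, a mean of 3.00 ± 0.31 (SD, n = 5). In CMT-U229 over CMT-U335 the excess was 2.77 ± 0.23. In P114 over CMT-U229 the difference was -0.27 ± 0.45 with the 4 CRYAB probes averaged, on either side of 0 on single arrays. There it depended on the CRYAB probe: CLU minus probe 2032 was -1.12 ± 0.31 and below 0 on all 5 arrays, and CLU minus probe 21203 was 0.40 ± 0.63, above 0 on 4 of 5 arrays. Which gene was lowered more in P114 was therefore not resolved. The pairs share lines, so these 3 values are not separate observations.

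Over all 5246 genes, limma with a Benjamini-Hochberg adjusted p under 0.05 called 22.3% in P114 over CMT-U335 (7.89% higher and 14.4% lower in P114), 7.3% in P114 over CMT-U229 (3.32% and 3.98%) and 17.3% in CMT-U229 over CMT-U335 (8.77% higher and 8.58% lower in CMT-U229). CLU was among the called genes in all 3 pairs and CRYAB in both pairs with P114. Since the pair of genes was chosen from these contrasts, nothing is read from that count. With each probe tested by itself, 10.3%, 3.4% and 8.23% of the table were called in the same order. The 4 CRYAB probes were called in both P114 pairs and not in the third. They are spots of the same arrays for a gene chosen from these contrasts, so nothing is read from their calls either. The share in P114 over CMT-U229 changed with single arrays: 383 genes were called over 5 arrays, 202 without replicate 1, 224 without replicate 2, 235 without replicate 3, 223 without replicate 5 and 79 with couples averaged. In CMT-U229 over CMT-U335 the 910 genes became 586 without replicate 2, 571 without replicate 5 and 410 with couples averaged. Couples averaged leave 3 values a pair, and with them 28 of 93 called values were no longer called. The 93 cover all called genes of the lists below, called neighbours and the genes most like CLU or CRYAB. Some of these genes are not named below. All calls below are of this limma test, and ratios of genes other than CLU and CRYAB are means with the standard error from limma (n = 5).

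Among the other small heat shock proteins, 5 of 10 listed genes were measured. In each pair with CMT-U335 2 fell and none rose, where 22.3% (P114) and 17.3% (CMT-U229) of all genes were called. In P114 over CMT-U229 none was called (7.3% of all genes), none had an unadjusted p under 0.05 and a SAM-type test called none. None was called lower in P114 against both lines, except HSPB6 in the closed-loop fit (P114 over CMT-U229 at -0.20, limma, adjusted p = 0.0304). HSPB8, which works with the co-chaperone BAG3 in clearing misfolded proteins, was highest in CMT-U335. It was lower in P114 (-2.01 ± 0.09, adjusted p = 2.81e-05, limma) and in CMT-U229 (-1.56 ± 0.16, adjusted p = 0.000996), and P114 over CMT-U229 was at -0.26 ± 0.19 (adjusted p = 0.576). HSPB6, a small heat shock protein of muscle, was lower in P114 than in CMT-U335 (-0.81 ± 0.08) and lower in CMT-U229 than in CMT-U335 (-0.57 ± 0.08). P114 over CMT-U229 was at -0.18 ± 0.09 for it. The heart and muscle members HSPB3 and HSPB7 and the sperm tail gene ODF1 were not called in any pair, with means between -0.03 and 0.10. CRYAB and HSPB8 were thus both lower in P114 than in CMT-U335, at -1.79 and -2.01 on the log2 scale, but in CMT-U229 over CMT-U335 CRYAB was at 0.15 where HSPB8 was at -1.56. The difference between the genes was not tested. The median of the 5 genes was 0.03, -0.03 and -0.02 in the order of pairs above, against -0.02, -0.01 and -0.01 for all genes.

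**Figure D3:**
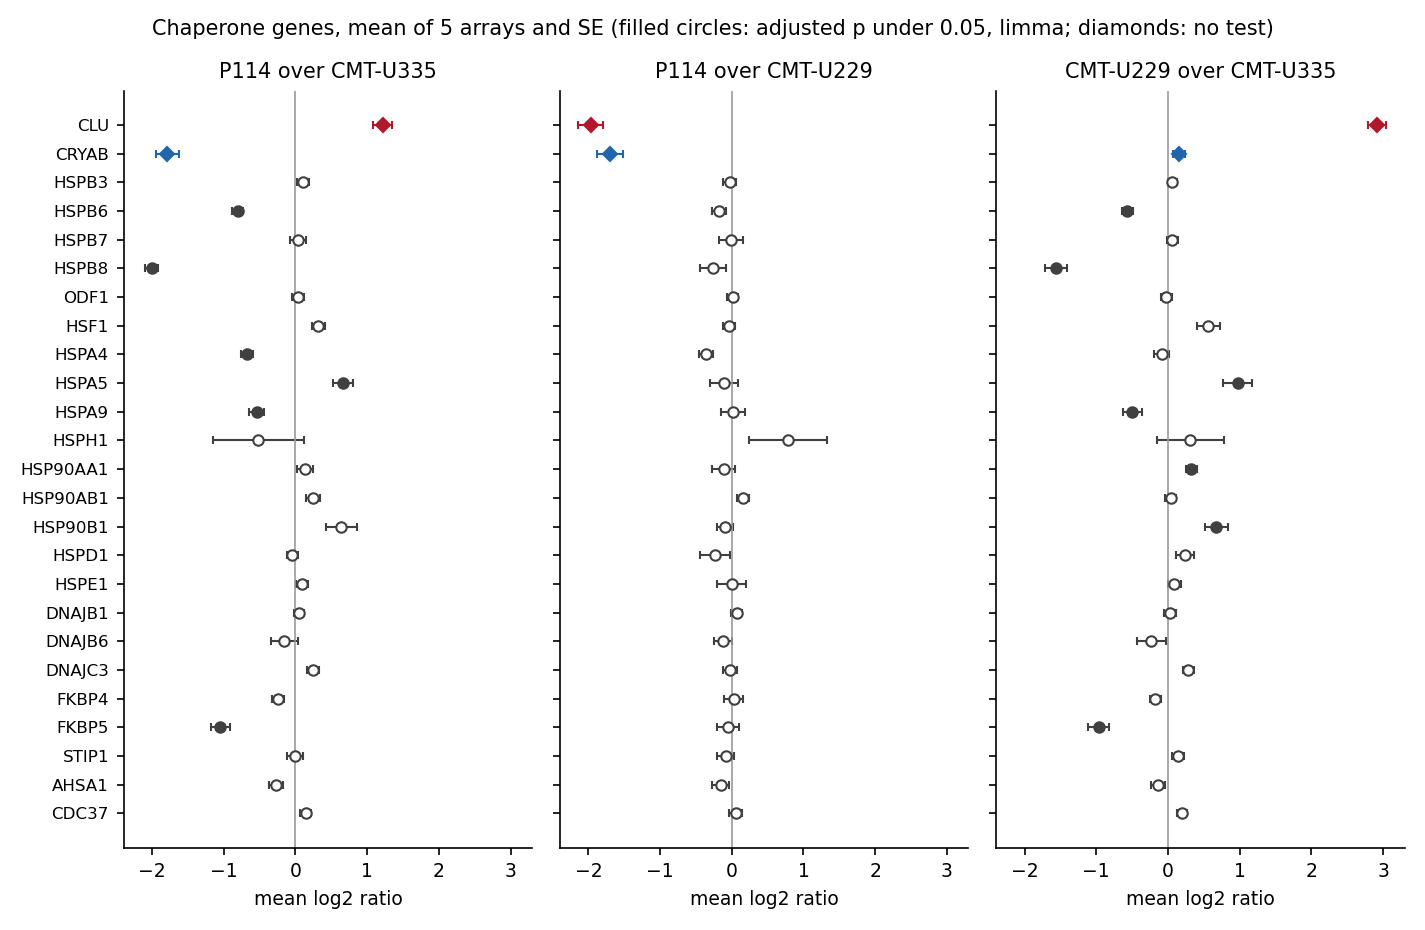
Mean log2 ratio over 5 arrays (x axis) with the standard error for CLU, CRYAB, the other measured small heat shock proteins and the HSP70, HSP90 and HSP40 machinery (y axis) in each pair. Diamonds are CLU and CRYAB, whose calls are not shown, and circles are filled where the adjusted p was under 0.05. The machinery lies within 1.05 log2 units of 0, and HSPB8 reaches -2.01 in P114 over CMT-U335.

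The HSP70, HSP90 and HSP40 machinery, which refolds what small heat shock proteins hold, had mean ratios within 1.05 log2 units of 0 in every pair. Of 18 measured genes 1 rose and 3 fell in P114 over CMT-U335, where 22.3% of all genes were called. In CMT-U229 over CMT-U335 3 rose and 2 fell, where 17.3% of all genes were called. None was called in P114 over CMT-U229 by limma (7.3% of all genes) or a SAM-type test, and 1 had an unadjusted p under 0.05. HSPA5, the HSP70 of the endoplasmic reticulum, where clusterin is folded and processed, was lowest in CMT-U335. It rose in P114 (0.66 ± 0.14, adjusted p = 0.0121) and in CMT-U229 (0.97 ± 0.20, adjusted p = 0.0177), and was at -0.11 between P114 and CMT-U229. The endoplasmic reticulum HSP90, HSP90B1, rose in CMT-U229 over CMT-U335 by 0.67 ± 0.16 (adjusted p = 0.0294), with replicate 1 below 0. The immunophilin FKBP5 fell by 1.05 ± 0.13 in P114 and 0.97 ± 0.14 in CMT-U229, both over CMT-U335, and the HSP70 relative HSPA4 fell by 0.68 ± 0.08 in P114 over CMT-U335. In P114 over CMT-U229 the largest mean was HSPH1 at 0.79 ± 0.54, with replicate 5 at 3.59 and the other arrays at -0.492 to 0.324. Next was HSPA4 at -0.36 ± 0.10, and neither was called. HSPA4 was called there in the fit over all 15 arrays (limma, adjusted p = 0.0187). The HSP90B1 call was lost without replicate 2, 3, 4 or 5 and that of HSPA5 in CMT-U229 over CMT-U335 without replicate 4 or 5. For the machinery list the median was 0.02, -0.04 and 0.12.

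Of partners and clients of alpha-B-crystallin, 13 were measured. In P114 over CMT-U335 3 were called, where 22.3% of all genes were, in P114 over CMT-U229 1 (7.3% of all genes) and in CMT-U229 over CMT-U335 1 (17.3%), with 6 at an unadjusted p under 0.05 in the last. Those that fell in P114 over CMT-U335 were the tubulin TUBB (-0.74 ± 0.11), the proteasome subunit PSMA3 (-0.54 ± 0.09) and the actin cross-linker FLNA (-0.48 ± 0.10). The TUBB call was lost in a fit over all 15 arrays (limma, adjusted p = 0.0789). FLNA also fell in CMT-U229 over CMT-U335 (-0.48 ± 0.10), so CMT-U335 had its highest level. BAG3 was the only one called in P114 over CMT-U229, at 0.57 ± 0.13 (adjusted p = 0.0417), and this call was lost without any 1 of the 5 replicates (adjusted p = 0.0563 to 0.13). The median of this list was -0.03, -0.04 and -0.24 in the order of pairs.

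Of the receptors and lipoprotein partners of clusterin, 12 were measured. Limma called 22.3%, 7.3% and 17.3% of all genes in the order of pairs, and 1 of the 12 in any pair. This was APP, the amyloid precursor protein, which fell by 0.67 ± 0.08 in P114 over CMT-U229 (adjusted p = 0.00274) and was at -0.35 ± 0.12 in P114 over CMT-U335. In the pairs with CMT-U335, where limma called 0, there were 2 genes with an unadjusted p under 0.05 in each, and a SAM-type test called 1 in P114 over CMT-U335 and 0 in CMT-U229 over CMT-U335. The largest means in these pairs were not called in the fit of the pair. In P114 over CMT-U335 this was the lipoprotein receptor VLDLR at -0.64 ± 0.38, with replicate 1 at -2.66 and the others at -0.405 to 0.199. In CMT-U229 over CMT-U335 they were the apolipoprotein APOD at 0.43 ± 0.38 and the sorting receptor SORL1 at 0.20 ± 0.07. Other fits called 2 values that the fit of the pair did not: APP in P114 over CMT-U335 with all 15 arrays (limma, adjusted p = 0.0171) and APOD in CMT-U229 over CMT-U335 with a dye term, at 0.63 (limma, adjusted p = 0.0128). List medians were 0.05, -0.02 and 0.08.

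Of complement genes and other extracellular chaperones, 14 were measured. In CMT-U229 over CMT-U335 5 rose and none fell (limma), where 17.3% of all genes were called. In P114 over CMT-U229 3 fell and none rose (7.3% of all genes), and in P114 over CMT-U335 1 was called (22.3%). CD59, which like clusterin blocks the membrane attack complex, rose in CMT-U229 over CMT-U335 (1.45 ± 0.15, adjusted p = 0.00104) and fell in P114 over CMT-U229 (-1.34 ± 0.20, adjusted p = 0.00968). The complement protease CFI, an inhibitor of the pathway, had 1.30 ± 0.13 and -1.07 ± 0.17, and the complement component C2 had 0.75 ± 0.08 and -0.90 ± 0.09 in these pairs. The protease C1S was raised in CMT-U229 (0.94 ± 0.15) and in P114 (1.17 ± 0.08) over CMT-U335. HPX, which binds haem in plasma and was named after its values were seen, had 0.30 ± 0.07 in CMT-U229 over CMT-U335. In P114 over CMT-U335 the only called gene was C1S. The probes of C1S differed, and with the median of its probes in place of the mean it was at 0.27 in CMT-U229 and 0.23 in P114 and was called in neither pair (limma, adjusted p = 0.429 and 0.127). The CFI call in P114 over CMT-U229 was lost without replicate 3. The HPX call was lost without replicate 2, 3, 4 or 5. With couples averaged, CD59 and CFI were no longer called in P114 over CMT-U229 (limma, adjusted p = 0.103 and 0.101), while the means were -1.34 and -1.08. The list median lay at 0.09, -0.01 and 0.04.

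Of regulators of CLU and partners in cell death, 9 of 32 listed genes were measured. In P114 over CMT-U335 2 rose and 2 fell, where 22.3% of all genes were called. In P114 over CMT-U229 1 fell (7.3% of all genes), and in CMT-U229 over CMT-U335 1 rose (17.3%). In the order of pairs 6, 5 and 7 had an unadjusted p under 0.05 (limma). FOS, a component of the AP-1 transcription factor, was lowest in CMT-U335: it rose in P114 (1.82 ± 0.26) and in CMT-U229 (0.90 ± 0.18), both over CMT-U335. JUNB, another AP-1 component, rose in P114 over CMT-U335 (0.54 ± 0.09), where the survival factor BCL2 fell (-0.87 ± 0.19). CYCS, the cytochrome c gene, was named after its values were seen and also fell there (-0.53 ± 0.10). XRCC6, which encodes the Ku70 protein that binds a nuclear form of clusterin, fell in P114 over CMT-U229 (-0.57 ± 0.13, adjusted p = 0.0399). That call was lost without replicate 1, 2, 3 or 5. List medians were -0.24, -0.07 and -0.03.

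CRYAB is also a marker of contractile cells, so contractile and basal genes were set beside it. Of 14 measured, 2 rose and 3 fell in P114 over CMT-U335, 2 rose and 3 fell in P114 over CMT-U229, and 2 rose and 4 fell in CMT-U229 over CMT-U335. Shares of all genes called in these pairs were 22.3%, 7.3% and 17.3%. The myosin light chain MYL9 and the tropomyosin TPM2 fell in P114 against both lines. MYL9 was at -1.05 ± 0.14 over CMT-U335 and -0.71 ± 0.15 over CMT-U229, and TPM2 was at -0.90 ± 0.12 and -0.75 ± 0.11 in turn. TPM2 was named because it was picked for its likeness to CRYAB, so that it goes with CRYAB is by selection. The MYL9 call in P114 over CMT-U229 was lost without replicate 1, 3 or 5. With couples averaged, neither MYL9 nor TPM2 was called there (limma, adjusted p = 0.144 and 0.0881). Other contractile genes went another way. The myosin kinase MYLK was highest in CMT-U229 (2.22 ± 0.07 over CMT-U335 and -2.03 ± 0.10 for P114 over CMT-U229), and the actin-binding CALD1 was highest in CMT-U335 (-2.27 ± 0.09 for P114 and -1.66 ± 0.43 for CMT-U229). The CALD1 call in CMT-U229 over CMT-U335 was lost without replicate 1, 4 or 5. The laminin chain LAMA3 rose in P114 over CMT-U335 (1.58 ± 0.24) and over CMT-U229 (2.47 ± 0.29), and the caveolar protein CAV1 rose over CMT-U229 (1.22 ± 0.07). The list medians were 0.06, -0.05 and -0.07.

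Of 5 measured luminal epithelial markers, 3 rose and 1 fell in P114 over CMT-U335, 2 rose in P114 over CMT-U229 and 3 rose in CMT-U229 over CMT-U335. Over all genes, 22.3%, 7.3% and 17.3% were called in these pairs. KRT18, a simple epithelial keratin, was at 3.48 ± 0.19, 2.41 ± 0.14 and 0.79 ± 0.07 in turn, and the adhesion molecule EPCAM at 3.55 ± 0.15, 1.80 ± 0.10 and 1.78 ± 0.14, so both were highest in P114 and lowest in CMT-U335. The partner keratin KRT8 was not ordered in that way: it was at 2.46 ± 0.20, -0.31 ± 0.19 and 2.56 ± 0.23, and P114 over CMT-U229 was not called. The tight junction gene TJP1 fell in P114 over CMT-U335 (-0.35 ± 0.08), a call lost without replicate 2, 3 or 5, and the mucin MUC1 was not called in any pair. Markers of leukocytes, endothelium and adipocytes lay close to 0. Of 9 measured limma called 1 in each pair with P114 and 0 in CMT-U229 over CMT-U335, where 0 had an unadjusted p under 0.05 and a SAM-type test called 0. It was the monocyte receptor CD14, at 0.36 ± 0.10 in P114 over CMT-U335 (a call lost without replicate 2, 3, 4 or 5) and 0.50 ± 0.07 in P114 over CMT-U229. All 9 had means between -0.18 and 0.50. The part of these markers in the CLU and CRYAB ratios was not tested.

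Genes beside CLU and CRYAB on their chromosomes were compared next. In the RefSeq table of dog assembly UU_Cfam_GSD_1.0, CLU lies on chromosome 25 and CRYAB on chromosome 5. Of the 10 protein-coding genes on each side of CLU, 6 were measured, with means from -0.79 to 0.06 in P114 over CMT-U335, -0.24 to 0.00 in P114 over CMT-U229 and -0.65 to -0.06 in CMT-U229 over CMT-U335. Of these 6, limma called 4 in P114 over CMT-U335, where 22.3% of all genes were called. It called 0 in P114 over CMT-U229 (7.3%) and 1 in CMT-U229 over CMT-U335 (17.3%). CLU itself was at 1.22, -1.97 and 2.92 in the same order of pairs. On the higher-coordinate side its nearest measured neighbour EPHX2, the soluble epoxide hydrolase, fell in both pairs in which CLU was higher than in CMT-U335: -0.79 ± 0.10 in P114 and -0.65 ± 0.09 in CMT-U229. ELP3, PBK and CCDC25 fell slightly in P114 over CMT-U335 (-0.42 ± 0.09, -0.32 ± 0.07 and -0.37 ± 0.09). The calls of ELP3 and PBK were lost without replicate 3, and that of CCDC25 without replicate 2, 3 or 5.

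Around CRYAB, 8 of 20 neighbours were measured, with means from -0.70 to 0.64, -0.26 to 0.30 and -0.61 to 0.40. Limma called 3, 0 and 2 of these 8 in the same order of pairs, beside 22.3%, 7.3% and 17.3% of all genes. HSPB2, another small heat shock gene and the nearest neighbour of CRYAB on its lower-coordinate side, was not among the genes named on the array. On the other side the adjacent gene C5H11orf1 fell in P114 over CMT-U335 (-0.70 ± 0.12, adjusted p = 0.0064) and was at -0.26 ± 0.07 in P114 over CMT-U229. The respiratory subunit SDHD fell in P114 (-0.44 ± 0.10) and in CMT-U229 (-0.61 ± 0.07) over CMT-U335, and BTG4 rose in the same pairs (0.64 ± 0.10 and 0.40 ± 0.08). The SDHD call in P114 over CMT-U335 was lost without replicate 3 or 4, and the BTG4 call in CMT-U229 over CMT-U335 without replicate 2 or 5. In P114 over CMT-U229, where CLU and CRYAB were both lower in P114, no measured neighbour was called by limma or a SAM-type test. Limma called 7.3% of all genes in this pair. There 1 neighbour of CLU and 3 of CRYAB had an unadjusted p under 0.05.

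Genes with the pattern most like CLU and CRYAB were sought by uncentred correlation over the 15 arrays, among 1119 genes with a root mean square ratio of at least 0.5. Most like CLU was RTN4, a reticulon that shapes the endoplasmic reticulum, with 0.978. LOXL3, a lysyl oxidase of the matrix, had 0.971, TUSC3, a subunit of the enzyme that attaches sugars to proteins in the endoplasmic reticulum, 0.955, SRPX 0.951 and PPP1R14C, an inhibitor of protein phosphatase, 0.948. LOXL3 was at 0.84 ± 0.40 in P114 over CMT-U335, -1.69 ± 0.14 in P114 over CMT-U229 and 2.34 ± 0.29 in CMT-U229 over CMT-U335 (SD, n = 5). RTN4 had 0.64 ± 0.25, -1.07 ± 0.25 and 1.51 ± 0.27. All 5 genes were highest in CMT-U229 and lowest in CMT-U335 by their means, as CLU was. They were picked for their likeness to CLU, so that shared order is by selection. The means of each were smaller than those of CLU.

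Most like CRYAB was FARP1, with 0.979. It was followed by TPM2 with 0.969, the membrane skeleton gene EPB41L1 with 0.963, LOC480844 with 0.962 and DHRS7, a dehydrogenase, with 0.952. FARP1 had -1.42 ± 0.36 in P114 over CMT-U335, -1.68 ± 0.20 in P114 over CMT-U229 and 0.25 ± 0.23 in CMT-U229 over CMT-U335 (SD, n = 5). LOC480844 had -1.91 ± 0.78, -1.75 ± 0.69 and -0.24 ± 0.54, with a wider spread between arrays. These genes were picked for their likeness, and their values are a description. CLU and CRYAB themselves had an uncentred correlation of 0.191 over the 15 arrays.

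**Figure D4:**
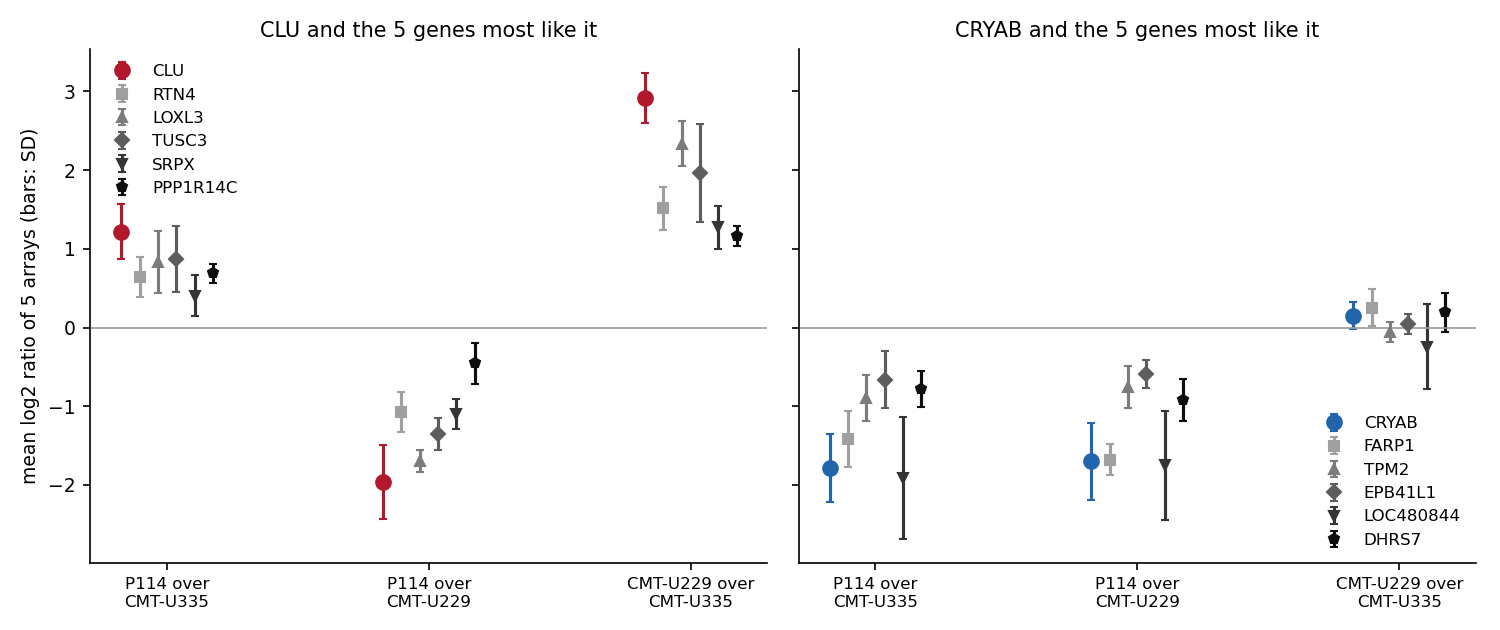
Mean log2 ratio of 5 arrays (y axis; bars are SD) in each pair of lines (x axis) for CLU and the 5 genes with the highest uncentred correlation with it (left), and for CRYAB and its 5 (right). CLU lies farther from 0 than its like genes in each pair, and in CMT-U229 over CMT-U335 CRYAB and its like genes lie between -0.24 and 0.25.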

How the data were processed

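RNA amplified by T7 transcription was dyed with Cy3 or Cy5 (per the labels' protocols). The authors deposited ratios of the dyes, normalized and on a log scale according to the design text, which were taken here as log2. How they were normalized, the base of the log and the numerator dye are not stated in the sources at hand. Base 2 was assumed, which turns the most extreme value, 12.43, into 5511-fold.

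The sign of an array was set by its dyes to the order of lines in its title. Of probes with a symbol, 7340 took the current one through Entrez identifiers and 354 kept that of the platform. Probes of a gene were averaged, which gave 5246 genes. Tests were run with limma 3.58.1 in R 4.3.3, separately for the 5 arrays of a pair, two-sided, with Benjamini-Hochberg adjustment over all genes and at least 3 arrays per gene. SAM is the study's test; a SAM-type statistic with 16 sign patterns was an alternative. In simulated arrays, noise was drawn independently for each array with the SD of each gene. Couples of arrays that vary together were not simulated, so recovery in the data may differ. For P114 over CMT-U335 (5245 genes), limma recovered 66% of genes changed by 0.5 and 98% of those changed by 1 (log2). For P114 over CMT-U229 it recovered 56% and 90%, and for CMT-U229 over CMT-U335 62% and 88% (5246 genes each).

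CLU, CRYAB and the 9 gene lists were chosen with earlier results of these data known. Genes named were all measured small heat shock proteins, up to 3 called genes per other list and pair by size of ratio (2 where none was called), called neighbours, and the 5 genes most like CLU and CRYAB each. HPX, CYCS, TJP1 and MUC1 were named outside this rule. Couples of arrays were the pairing of opposite dyes with the smallest median share of variation within couples, over the picked genes described above. The share was 0.0598 in P114 over CMT-U229, 0.177 in CMT-U229 over CMT-U335, and 0.426 in P114 over CMT-U335, where couples were unclear. Other alternatives were centring, scaling, a dye term, shared and closed-loop fits, the replicate number as a block, the median of probes, other thresholds and each array left out. No sequence is printed, since none was in the files used.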

Additional observations from a re-analysis of the deposited data

Results flagged for a closer look

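On 6 of 139 sets of 5 arrays examined, a single array lay far from the other 4 by Dixon's criterion, which chance meets in about 1 in 20 sets. CRYAB probe 2032 in CMT-U229 over CMT-U335 was at -0.253 in replicate 4, against 0.143 to 0.253 on the other arrays. EPB41L1, one of the genes most like CRYAB, was at 0.265 in replicate 1 of the same pair, against -0.0434 to 0.0204. TUSC3, one of those most like CLU, was at 1.62 in replicate 2 of P114 over CMT-U335, against 0.654 to 0.75, and PPP1R14C was at -0.905 in replicate 4 of P114 over CMT-U229, against -0.433 to -0.281. The chaperone HSPH1 was at 3.59 in replicate 5 of P114 over CMT-U229, against -0.492 to 0.324, and the clusterin receptor VLDLR at -2.66 in replicate 1 of P114 over CMT-U335, against -0.405 to 0.199.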

How the results depend on the processing

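The sign of every CLU and CRYAB ratio rests on the reading of the dyes. Read as Cy3 over Cy5, CLU would be -1.22 in P114 over CMT-U335, 1.97 in P114 over CMT-U229 and -2.92 in CMT-U229 over CMT-U335, and CRYAB 1.79, 1.70 and -0.15. The size of CRYAB depends on the probe: alone, probes 2032, 11624 and 21203 gave -0.81, -2.49 and -2.42 in P114 over CMT-U335 and -0.85, -2.32 and -2.36 in P114 over CMT-U229. Centring, scaling, a dye term, the fits over all arrays, the median of probes and averaged couples moved the CLU and CRYAB means by less than 1 SD. With 1 array left out CLU ranged from 1.13 to 1.31, -2.13 to -1.81 and 2.79 to 3.02, and CRYAB from -1.96 to -1.69, -1.86 to -1.60 and 0.11 to 0.22, in the order of pairs above.

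Counts of called genes moved more. In P114 over CMT-U335 (1169) limma called 1757 in the closed loop, 642 at an adjusted p under 0.01 and 2289 probes. In P114 over CMT-U229 (383) it called 650 with all 15 arrays, 1056 in the loop, 79 with couples averaged, 159 under 0.01, 754 probes and 202 to 408 with 1 array left out. In CMT-U229 over CMT-U335 (910) it called 1445, 410, 470 and 1826 for the loop, couples, 0.01 and probes, and 571 to 863 with 1 array left out. Of 99 measured genes of the lists 24, 14 and 23 were called in the 3 pairs. These are 24.2%, 14.1% and 23.2%, beside 22.3%, 7.3% and 17.3% of all genes. The lists were chosen with earlier results known, so nothing is read from these shares. The counts became 39, 25 and 38 in the loop, 6 with couples averaged in P114 over CMT-U229 and 15 under 0.01 in CMT-U229 over CMT-U335. Genes of the lists, called neighbours and the genes most like CLU and CRYAB gave 93 called values. Of these, 34 were not called under 1 or more alternatives and 19 not with 1 array left out. Among the 34 were HSP90AA1 and HSPA9 in CMT-U229 over CMT-U335, which are not described above. None of the 93 changed sign. In 11 cases a value that was not called became called under an alternative: APOD with a dye term, and APP, HSPA4, PPP1R14C and HSPB6 in 1 or more of the fits over all 15 arrays.

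Arrays with equal replicate numbers in different pairs did not all vary together: their correlations ran from -0.248 to 0.198, 0.000561 to 0.331, -0.249 to 0.0737, -0.0966 to 0.198 and -0.149 to 0.0593 for numbers 1 to 5. With the replicate number as a block (correlation -0.0772) limma called 651 genes in P114 over CMT-U229, against 650 in the same fit without it, and CLU and CRYAB means stayed at 1.22, -1.97, 2.92, -1.79, -1.70 and 0.15.

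Among named genes, only uncalled values near 0 changed sign, and the cause was not tested. For P114 over CMT-U229, HSPB3 was 0.00683 with a dye term and -0.0846 to 0.0273 with 1 array left out. HSPB7 was 0.00856 with couples averaged and -0.175 to 0.139 with 1 array left out, and ODF1 was -0.00898 with the median of probes and -0.0258 to 0.0575. For P114 over CMT-U335, HSPB7 was -0.0185 with couples averaged and -0.0478 to 0.115 with 1 array left out, and ODF1 was -0.00962 to 0.0878. For CMT-U229 over CMT-U335, TPM2 was 0.00935 with the median of probes, EPB41L1 was -0.0138 to 0.0633 and ODF1 -0.0673 to 0.0138 with 1 array left out.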
